A study of Mus musculus with 14 samples.

Results

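The nuclear genes for subunits of the mitochondrial respiratory chain and ATP synthase were followed in mouse embryonic fibroblasts with and without SirT7. They were taken by symbol (names opening with Nduf and a subunit letter, Sdh, Uqcr, Cox4 to Cox8 or Atp5, together with Cyc1 and Cycs, without pseudogene symbols), which gave 86 of the 24015 genes in the deposited count table. Of these, 37 belong to complex I, 4 to complex II, 9 to complex III, 18 to complex IV and 17 to complex V by name, and Cycs encodes cytochrome c. The fibroblasts, primary connective-tissue cells of strain 129s2, were isolated from embryos at day 14.5, used at passages 3 to 4, and kept for 18 h in normal or in glucose-free medium before RNA extraction. Wild-type cells gave 4 libraries from normal (WT-NT) and 3 from glucose-free medium (WT-GS), and SirT7-/- cells gave 4 (KO-NT) and 3 (KO-GS) likewise. Libraries are called by group and replicate number. The labels do not say how many embryos or separate cultures stand behind the replicates, so p-values measure the spread between these libraries, which may be technical, nor do they describe the SirT7 allele.

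Complexes I to IV pass electrons from NADH and succinate to oxygen, complexes I, III and IV pump protons as they do so, and complex V uses the proton gradient to make ATP. Most subunits are encoded in the nucleus and must be imported and built together with a small set made from mitochondrial DNA. Cells without glucose cannot feed glycolysis and depend more on this chain. SirT7 is a nuclear sirtuin, an NAD-dependent deacylase, that has been described to deacetylate GABPβ1, a partner in the GABP transcription factor that drives many of these nuclear genes. The genes encoded by mitochondrial DNA were not analysed here.

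Of the 86 genes, 83 had enough counts to be tested. Cox7b2 and Cox8c, a pair of complex IV isoform genes described in testis, had no count in any library, which allows up to 0.0502 CPM (counts scaled to a common library total) in the shallowest one, by counting error alone. Cox8b, the muscle isoform of subunit 8, had 39 counts in WT-GS 3, 11 in KO-NT 1 and none elsewhere. Total counts were 59788270 to 91607861 per library, and the 86 genes together took 0.646 to 0.850% of them. Levels below are CPM scaled by edgeR's TMM factors. They serve for comparing libraries for 1 gene, since they were not divided by transcript length. Sirt7 itself was at 17.4 to 22.9 CPM in wild-type libraries and at 0.29 to 1.45 CPM in SirT7-/- libraries. Summed fibroblast marker levels were 12221 to 38318 CPM, and those of macrophage markers 13.3 to 1712 CPM.

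The medium was less clear in a pair of SirT7-/- libraries. Hspa5, an endoplasmic reticulum chaperone that marked the glucose-free libraries, was at 6249 CPM in the library labelled KO-NT 4, against 1464 to 1556 CPM in the other KO-NT libraries. In the library labelled KO-GS 3 it was at 1059 CPM, against 6061 and 5701 CPM in KO-GS 1 and 2. Txnip, a glucose-induced gene that was low in the glucose-free libraries, was at 5.46 CPM in KO-NT 4, against 98.7 to 117 CPM in the other KO-NT libraries, and at 118 CPM in KO-GS 3, against 8.91 and 1.79 CPM in KO-GS 1 and 2. Summed fibroblast markers were 14967 CPM in KO-NT 4, where the rest of its group had 32830 to 38318 CPM, and 27860 CPM in KO-GS 3, where the rest had 12460 and 13129 CPM. In all 3 measures each library lay near the levels of the medium opposite to its label, as an exchange of the pair would give, though whether they were exchanged was not tested. The labels were kept, so SirT7-/- values from all libraries may mix the media, and results that rest on the pair are also given without it. WT-NT 2 stood apart in the respiratory chain genes themselves, being the highest WT-NT library for 72 of the 76 members with at least 5 CPM, and values that rest on it are given without it too. In bulk RNA, fewer cells of a type and less RNA per cell cannot be told apart.

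In wild-type cells, 18 h without glucose left most respiratory chain genes within a narrow range. Only Ndufa10 and Uqcrfs1 rose past the threshold (edgeR's quasi-likelihood F-test, Benjamini-Hochberg adjusted p under 0.05 over all 15666 genes), that is 2 of 83 members or 2.41%, where 25.9% of all genes were called (12.9% higher and 13.1% lower). The median log2 change of the members was -0.09, against -0.04 for all genes, and their median size of change was 0.18 against 0.41. A 2-fold change was passed by 3 members (3.61%) against 19.5% of all genes. These were Cox6a2, Ndufs5 and Ndufa4l2, each under 5 CPM on average, while the 76 members with at least 5 CPM ran from -0.59 to 0.56. Of the 15666 genes tested, 10691 had at least 5 CPM, so all genes held more low-count genes than the members did, and these comparisons were not matched for level. The groups WT-NT and WT-GS did not overlap for 18 members (7 higher, 11 lower, 21.7%), beside 44.4% of all genes (22.4% higher, 22.1% lower), and without WT-NT 2 for 31 (20 higher, 11 lower, 37.3%), beside 52.1% (25.3% higher, 26.7% lower). Without WT-NT 2 the members' median change was 0.01. Leaving out 1 library at a time moved calls over all genes from 0 to 5621 and called members from 0 to 9, the SirT7-/- libraries entering through the shared spread. Since calls over all genes moved as well, this range of member counts is not a result about the members. Without KO-NT 4 and KO-GS 3 it was 11 of 84 (6 higher, 5 lower), beside 39.6% of all genes (20.4% higher, 19.1% lower). Without WT-NT 2 as well it was 23 of 84 (19 higher, 4 lower), beside 39.9% of all genes (21% higher, 18.9% lower), so that the balance of directions rests on WT-NT 2. The genes called without KO-NT 4 and KO-GS 3 were Ndufa10, Uqcrfs1, Cox7a2l, Cox6a2, Atp5g2 and Atp5sl upwards and Sdha, Sdhc, Atp5a1, Atp5g3 and Atp5k downwards.

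**Figure D1:**
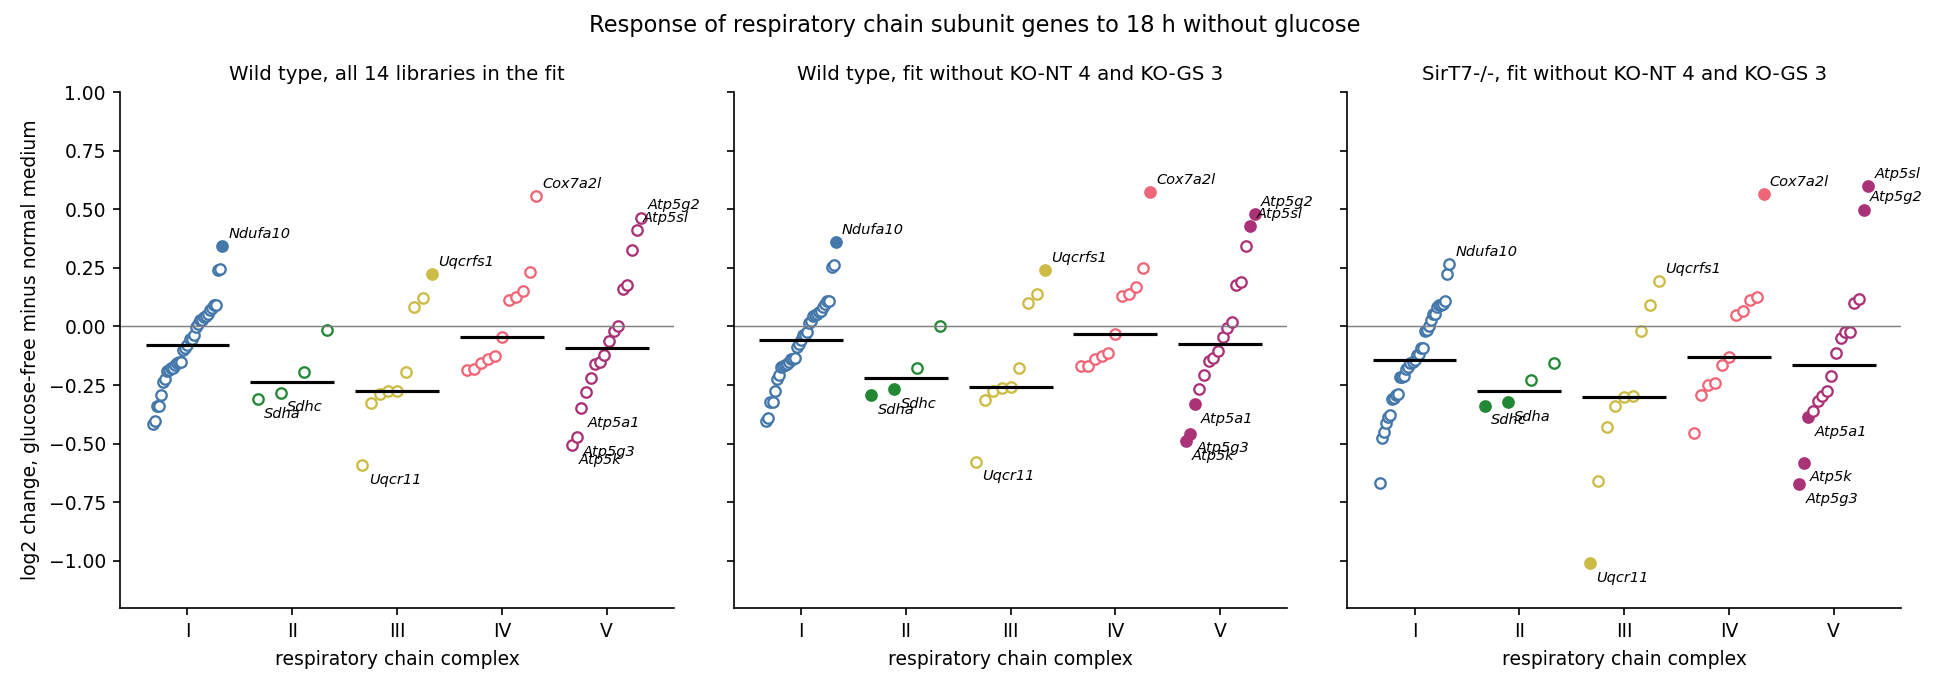
Log2 change in glucose-free minus normal medium for genes with a mean of at least 5 CPM (35, 4, 9, 11 and 16 in complexes I to V), 1 point per gene, sorted within each complex, in wild type with all 14 libraries (left), in wild type (middle) and SirT7-/- (right) without KO-NT 4 and KO-GS 3. Filled points passed an adjusted p under 0.05 and black lines are medians of the plotted genes; on the left only Ndufa10 and Uqcrfs1 are filled, and in the other panels complex V has filled points at both ends.

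Complex I, the NADH dehydrogenase, had a median log2 change of -0.08 over its 37 genes, 14 of them above 0 and 23 below, and of 0.01 without WT-NT 2, with 21 above. Its 7 core subunits (Ndufs and Ndufv genes that hold flavin and iron-sulphur clusters) had a median of -0.05 and its 30 other genes one of -0.08. Ndufa10, an accessory subunit of the matrix side, was at 59.2, 63.2, 52.5 and 54.1 CPM in WT-NT 1 to 4 and at 71.0, 67.2 and 79.7 CPM in WT-GS 1 to 3. Every glucose-free value lay above every normal-medium value, and the log2 change was 0.34 (SE 0.09, adjusted p = 0.0266). Over the alternative fits its adjusted p ran from 0.00174 to 0.1001. Ndufs1, the largest core subunit, stayed at 109 to 117 CPM in all 7 wild-type libraries, with a log2 change of 0.03 (SE 0.08). Ndufb8, an accessory subunit of the membrane arm, had a fitted difference of -0.42 on the log2 scale (SE 0.17, adjusted p = 0.085) without passing, and its groups overlapped, at 37.2 to 66.4 CPM and 34.3 to 41.1 CPM. It was -0.27 without WT-NT 2. Ndufs5, an accessory subunit, was at 0.88 to 1.69 CPM in WT-NT and at 1.87, 6.52 and 1.60 CPM in WT-GS, and its log2 change of 1.23 (SE 0.46, adjusted p = 0.062) was 0.29 without WT-GS 2.

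Ndufa4, named with complex I and since assigned to complex IV, was at 95.98 to 131 CPM in WT-NT and 91.1 to 98.98 CPM in WT-GS, with overlap. Its relative Ndufa4l2, known as a gene induced by hypoxia, was at 0.77, 0.92, 2.24 and 1.51 CPM in WT-NT and at 0.50, 1.09 and 0.39 CPM in WT-GS. The log2 change was -1.05 (SE 0.49, adjusted p = 0.119), and the groups overlapped.

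Complex II, succinate dehydrogenase, had all 4 fitted log2 changes below 0 and a median of -0.24, or 3 of 4 and -0.19 without WT-NT 2. Sdha, the flavoprotein that oxidises succinate, was at 225, 222, 214 and 206 CPM in WT-NT and at 170, 178 and 176 CPM in WT-GS. The ranges were well apart, with a log2 change of -0.31 (SE 0.13) and an adjusted p of 0.084 in the fit of all 14 libraries, and of -0.29 (SE 0.07, adjusted p = 0.0080) without KO-NT 4 and KO-GS 3. Sdhc, one of the membrane anchors, was at 92.04 to 117 CPM in WT-NT and 79.3 to 87.5 CPM in WT-GS, with log2 changes of -0.28 (SE 0.13, adjusted p = 0.111) and -0.27 (SE 0.09, adjusted p = 0.042) in the same order. Sdhd, the other anchor, did not overlap between the groups either, at 82.9 to 94.0 CPM and 72.8 to 80.3 CPM, but passed the threshold in neither fit (log2 change -0.19, SE 0.10). Sdhb, the iron-sulphur subunit, had a log2 change of -0.01 (SE 0.10), and its ranges of 71.3 to 104 CPM and 81.4 to 87.3 CPM overlapped.

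Complex III, the cytochrome bc1 complex, had a median log2 change of -0.27, with 3 of 9 genes above 0. Without WT-NT 2 the median was -0.09, again with 3 of 9 above 0. Uqcrfs1, the Rieske iron-sulphur protein of its catalytic core, was at 55.9, 60.2, 56.0 and 50.9 CPM in WT-NT and at 62.8, 64.8 and 67.8 CPM in WT-GS. The groups did not overlap, and the log2 change of 0.22 (SE 0.07) passed with an adjusted p of 0.0450, which ran from 0.00479 to 0.145 over the alternative fits. Uqcr11, the smallest subunit, had the most negative log2 change of the members with at least 5 CPM, and was at 27.9, 54.4, 40.4 and 25.3 CPM in WT-NT and 22.1, 25.5 and 26.2 CPM in WT-GS. Its groups overlapped and its log2 change of -0.59 (SE 0.23) did not pass (adjusted p = 0.071). Without WT-NT 2 it was -0.35, and without WT-NT 4 it was -0.73 and passed (adjusted p = 0.028). The core genes Uqcrc1 and Uqcrc2 had log2 changes of -0.27 (SE 0.14) and 0.08 (SE 0.08), or -0.16 and 0.12 without WT-NT 2. Cyc1, the haem subunit cytochrome c1, was at 68.2 to 104 CPM in WT-NT and 73.7 to 80.3 CPM in WT-GS, and Cycs, which carries electrons from it to complex IV, was at 89.8 to 113 CPM and 107 to 121 CPM. Neither passed the threshold, with log2 changes of -0.19 (SE 0.12) and 0.15 (SE 0.10), the first being -0.09 without WT-NT 2.

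Complex IV, cytochrome c oxidase, had a median log2 change of -0.05 over 15 tested genes, 7 above and 8 below 0, and of 0.05 without WT-NT 2, 9 above and 6 below. Its widely expressed isoforms made up nearly all of the transcripts. Cox4i1 formed 99.4 to 99.8% of the counts of the Cox4i pair in every library, and Cox6a1 formed 97.0 to 99.9% of the Cox6a pair. Cox4i1 was at 176 to 248 CPM in WT-NT and 209 to 237 CPM in WT-GS, and Cox4i2, an isoform known from lung, at 0.45 to 0.83 CPM and 0.42 to 0.48 CPM. The smaller partners Cox6b2 (log2 change 0.43, SE 0.50) and Cox7a1 (log2 change -0.18, SE 0.44) did not pass, nor did Cox6b1 (-0.05, SE 0.13), Cox7a2 (-0.16, SE 0.18), Cox8a (-0.18, SE 0.13) or Cox6a1 (-0.18, SE 0.17). The last pair had -0.08 and -0.02 without WT-NT 2.

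Cox7a2l encodes a protein that joins complexes III and IV into supercomplexes. It was at 88.8, 115, 102 and 92.5 CPM in WT-NT and at 150, 133 and 157 CPM in WT-GS. All glucose-free values were above all normal-medium values, and the log2 change was 0.56 (SE 0.22, adjusted p = 0.076) from 14 libraries, and 0.57 (SE 0.11, adjusted p = 0.0017) without KO-NT 4 and KO-GS 3. Cox6a2, the heart and skeletal muscle isoform of subunit 6a, was at 0.20, 0.50, 0.29 and 0.40 CPM in WT-NT and at 1.59, 1.51 and 2.41 CPM in WT-GS, which is 15 to 45 counts against 90 to 199. Its log2 change was 2.38 (SE 0.93, adjusted p = 0.072), and 2.40 (SE 0.37, adjusted p = 0.00063) without the 2 libraries. It still made up at most 1.997% of the Cox6a counts in WT-GS, and from 0.169% in WT-NT (95% Wilson intervals reached 0.339 percentage points to either side at most). Of 17 muscle markers in the table, Ckm was at 0 in all libraries, Myod1 reached at most 0.14 CPM and Myog at most 0.82 CPM. Acta1 rose (log2 change 1.67, SE 0.46) while Tnni2, Tnnt1 and Mylpf fell (-3.67, SE 0.87; -1.97, SE 0.49; -2.05, SE 0.61). The summed muscle markers were 86.8 to 153 CPM in WT-NT and 104 to 255 CPM in WT-GS, and their part in the Cox6a2 values was not tested.

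**Figure D2:**
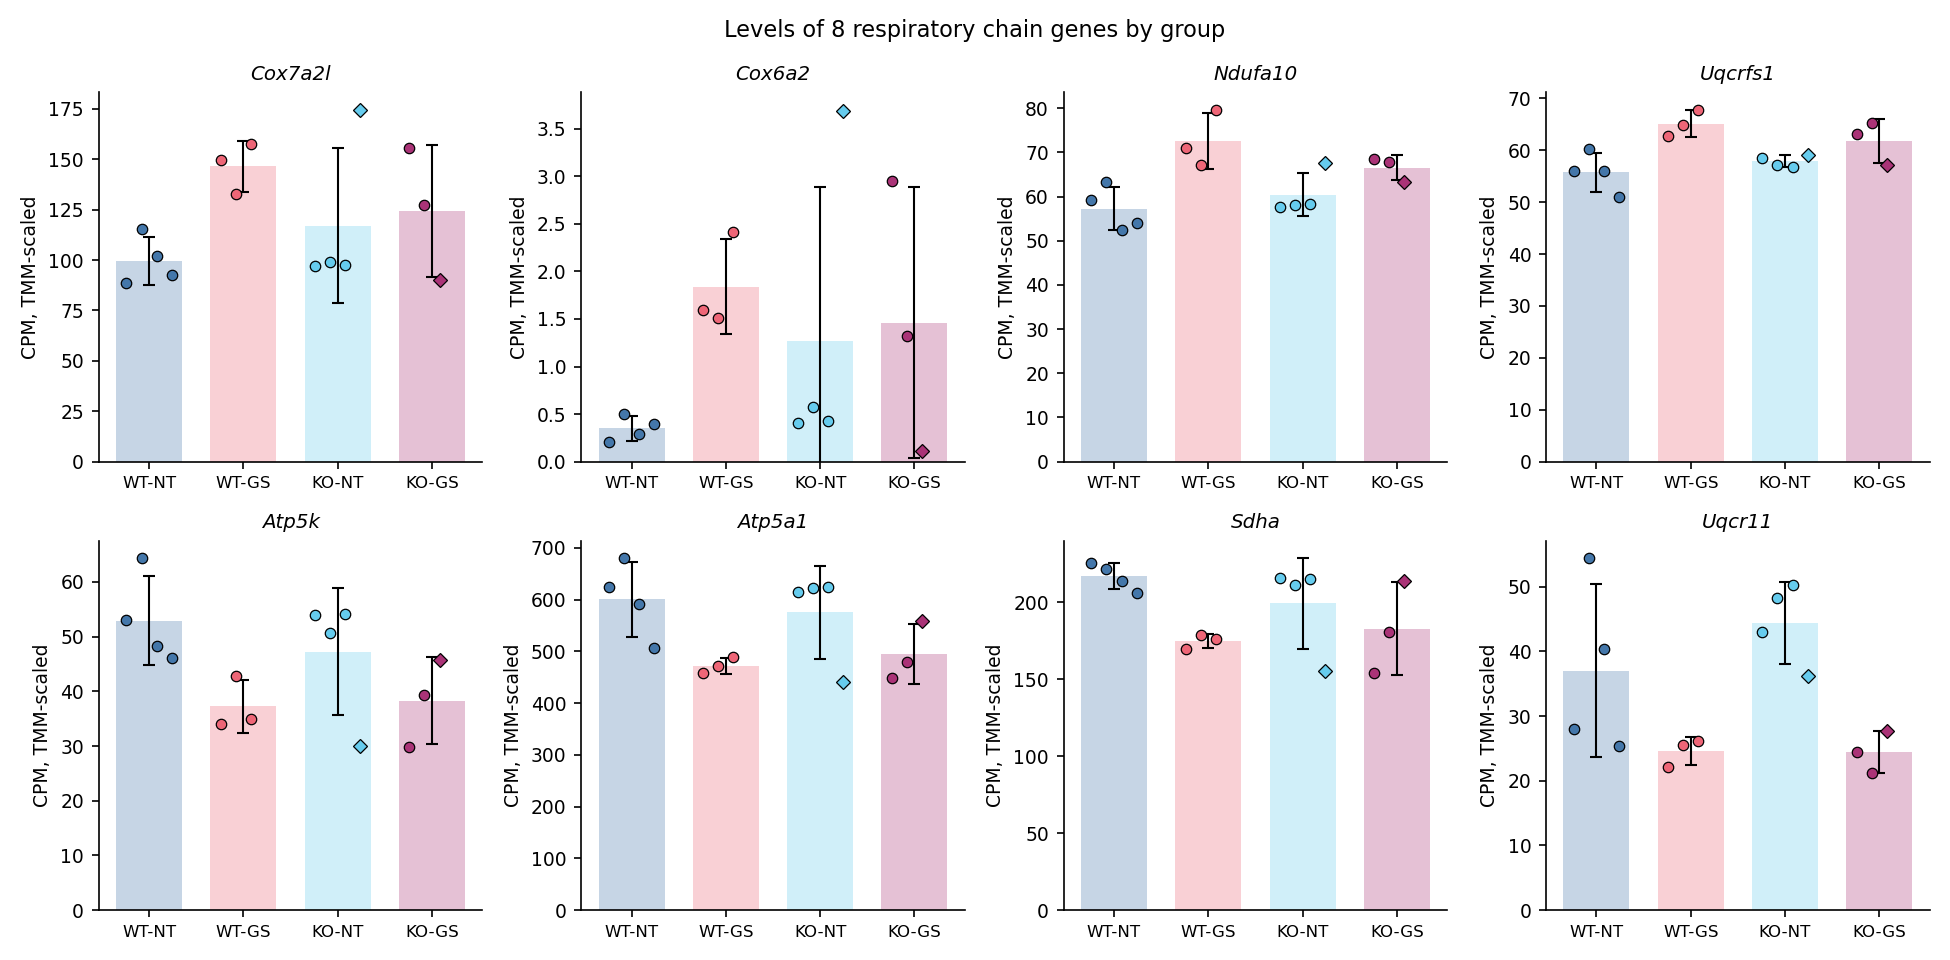
TMM-scaled CPM of 8 genes in each library (points), with the group mean (bar) and SD (error bar, cut off at 0 for Cox6a2), for the 4 groups. Diamonds are KO-NT 4 and KO-GS 3. The 3 WT-GS points lie above the 4 WT-NT points for Cox7a2l, Cox6a2, Ndufa10 and Uqcrfs1 and below them for Atp5k, Atp5a1 and Sdha, while those of Uqcr11 overlap.

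Complex V, ATP synthase, had genes at both ends. Its median log2 change was -0.06 over 17 genes, with 7 above and 10 below 0, and 0.04 without WT-NT 2, with 10 above and 7 below. The 5 genes of the catalytic F1 head (Atp5a1, Atp5b, Atp5c1, Atp5d and Atp5e) had log2 changes below 0, but without WT-NT 2 Atp5c1 and Atp5e were at 0.04 and 0.05. Atp5a1, the alpha subunit, was at 625, 680, 591 and 507 CPM in WT-NT and at 458, 471 and 489 CPM in WT-GS, and the log2 change was -0.35 (SE 0.14, adjusted p = 0.082), or -0.33 (SE 0.10, adjusted p = 0.023) without the 2 libraries. The groups did not overlap, with WT-NT 4 nearest to the glucose-free values. Atp5b, the beta subunit with the catalytic sites, had a log2 change of -0.16 (SE 0.15) with overlap. Atp5k, the small membrane subunit e that helps ATP synthase form dimers, was at 53.0, 64.4, 48.3 and 46.1 CPM and at 34.1, 42.9 and 34.9 CPM. Its log2 change was -0.51 (SE 0.21, adjusted p = 0.085), and -0.49 (SE 0.15, adjusted p = 0.021) without the 2 libraries. Atp5sl and Atp5s share the prefix but are not structural subunits, and Atp5sl has been described in complex I assembly. Atp5sl was at 9.64 to 12.4 CPM in WT-NT and 12.8 to 15.8 CPM in WT-GS, with a log2 change of 0.43 (SE 0.14, adjusted p = 0.036) without the 2 libraries and 0.41 (SE 0.24, adjusted p = 0.207) with them.

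The c ring, the rotor that protons turn, is encoded by Atp5g1, Atp5g2 and Atp5g3. They give the same mature peptide with different import sequences. Atp5g2 was at 112, 143, 103 and 105 CPM in WT-NT and at 158, 145 and 175 CPM in WT-GS. Atp5g3 was at 168, 209, 174 and 146 CPM in WT-NT and at 118, 132 and 126 CPM in WT-GS. Neither gene's groups overlapped, Atp5g2 being higher and Atp5g3 lower without glucose. Atp5g1 overlapped, at 64.0, 82.2, 56.9 and 69.0 CPM and at 64.4, 97.8 and 93.8 CPM. The sum of the 3 genes was 319 to 434 CPM in WT-NT and 341 to 395 CPM in WT-GS. As a share of the 3 genes' counts, Atp5g2 held 30.8 to 32.98% in WT-NT and 38.7 to 46.4% in WT-GS, and Atp5g3 held 45.6 to 52.1% and 31.8 to 35.3% (95% Wilson intervals within 0.639 percentage points to either side). The log2 changes were 0.46 (SE 0.18, adjusted p = 0.076) for Atp5g2, -0.47 (SE 0.19, adjusted p = 0.081) for Atp5g3 and 0.33 (SE 0.20, adjusted p = 0.217) for Atp5g1. Without KO-NT 4 and KO-GS 3 the first pair passed, at 0.48 (SE 0.12, adjusted p = 0.0094) and -0.46 (SE 0.12, adjusted p = 0.013).

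**Figure D3:**
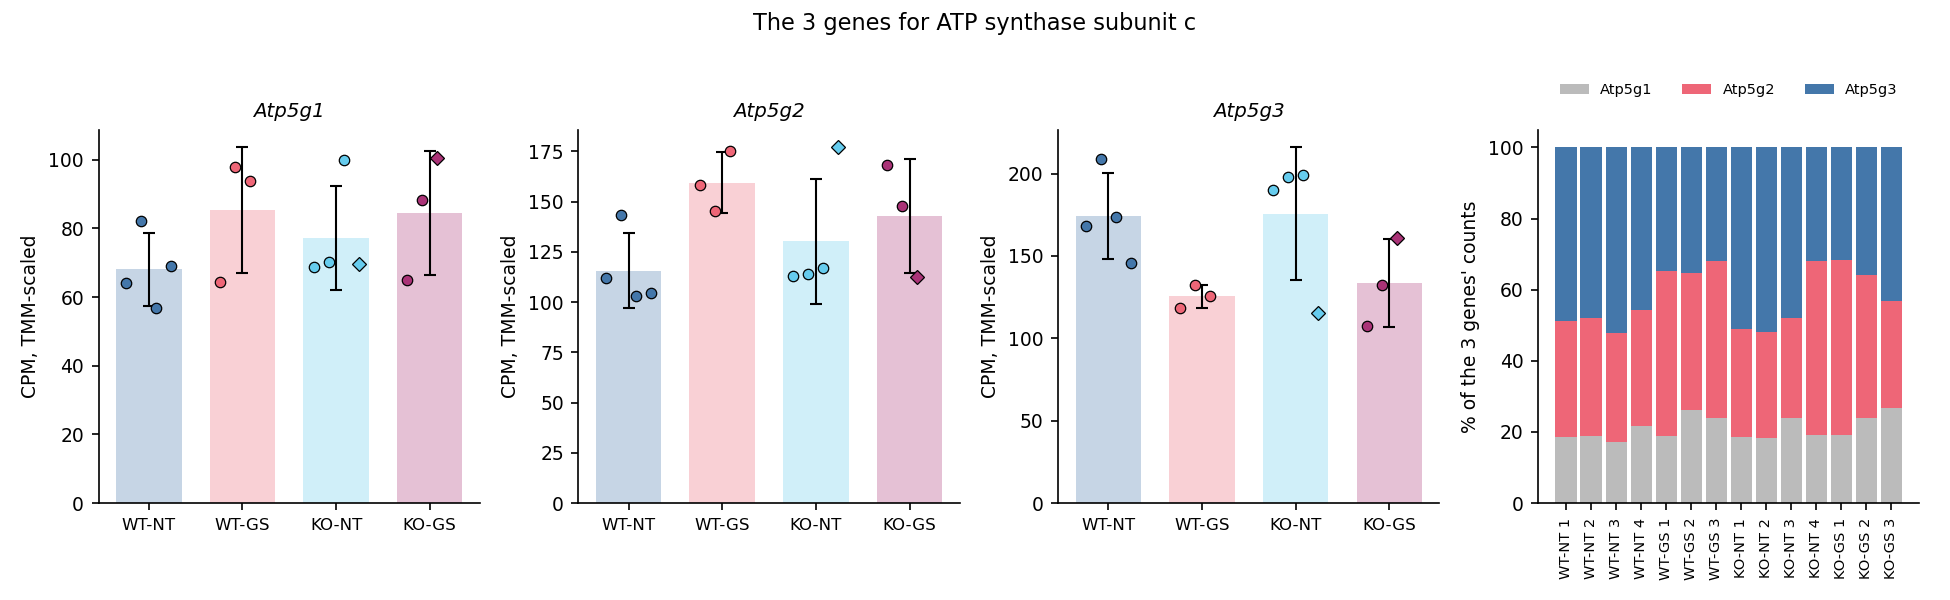
TMM-scaled CPM of Atp5g1, Atp5g2 and Atp5g3 in each library (points) with group mean (bar) and SD (error bar), diamonds being KO-NT 4 and KO-GS 3, and, at the right, the share of each gene in the 3 genes' counts per library. The Atp5g2 share is 30.8 to 32.98% in WT-NT and 38.7 to 46.4% in WT-GS, and reaches 48.8% in KO-NT 4 against 30.1% in KO-GS 3.

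Promoters of genes with starvation changes of opposite sign were set side by side. RefSeq promoters (GRCm38.p6) were matched for 70 of the 86 genes, giving 76 start sites. The 250 bases before the start are shown for the 3 c-ring genes, at chr11:96075632-96075881, chr15:102671048-102671297 and chr2:73911327-73911576, for Atp5k at chr5:108434400-108434649 and for Cox7a2l at chr17:83514334-83514583, all on the minus strand and written 5′ to 3′ in transcript direction. Capitals mark the palindromic NRF1 motif and the CCAAT box (CCAAT, also as ATTGG on the other strand).
Atp5g1: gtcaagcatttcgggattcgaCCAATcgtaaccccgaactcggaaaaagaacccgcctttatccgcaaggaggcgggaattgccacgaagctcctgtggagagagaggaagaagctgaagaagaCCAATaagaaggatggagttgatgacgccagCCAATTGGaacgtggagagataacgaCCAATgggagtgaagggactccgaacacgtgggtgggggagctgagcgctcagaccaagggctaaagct
Atp5g2: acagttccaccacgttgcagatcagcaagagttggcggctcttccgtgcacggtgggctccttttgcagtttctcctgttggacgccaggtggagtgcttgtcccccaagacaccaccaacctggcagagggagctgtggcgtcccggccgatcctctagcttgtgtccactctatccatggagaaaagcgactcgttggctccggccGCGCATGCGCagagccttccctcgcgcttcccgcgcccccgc
Atp5g3: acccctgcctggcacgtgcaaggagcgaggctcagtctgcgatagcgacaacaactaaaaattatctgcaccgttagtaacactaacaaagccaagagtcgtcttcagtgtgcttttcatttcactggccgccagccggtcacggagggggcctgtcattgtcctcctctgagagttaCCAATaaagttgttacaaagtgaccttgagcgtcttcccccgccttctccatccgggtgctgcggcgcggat
Atp5k: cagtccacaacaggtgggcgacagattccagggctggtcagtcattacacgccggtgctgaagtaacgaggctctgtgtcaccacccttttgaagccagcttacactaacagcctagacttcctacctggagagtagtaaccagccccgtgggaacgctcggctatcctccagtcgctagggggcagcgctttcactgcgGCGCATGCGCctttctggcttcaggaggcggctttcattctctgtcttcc
Cox7a2l: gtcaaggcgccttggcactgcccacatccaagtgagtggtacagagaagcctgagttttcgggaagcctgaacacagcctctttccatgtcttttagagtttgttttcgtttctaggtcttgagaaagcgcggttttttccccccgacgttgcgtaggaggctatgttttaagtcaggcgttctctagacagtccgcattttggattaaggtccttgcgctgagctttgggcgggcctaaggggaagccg
Atp5g2 and Atp5k, which had changes of opposite sign, both hold 1 NRF1 motif, starting 42 and 50 bases before the start site. Atp5g3 holds 1 CCAAT box and Atp5g1 holds 5, of which a pair on opposite strands overlap, while Cox7a2l holds neither motif. On both strands of this window, the NRF1 motif was found in 4 of the 76 member promoters (5.26%) and in 0.782% of all 32851 promoters, and the ETS core CCGGAAG, which GABP binds, in 12 (15.8%) against 6.91%. The CCAAT box was in 33 (43.4%) against 33.8%. The ATF4 element TGATGNAA, in 3.45% of all promoters, and the endoplasmic reticulum stress element, which contains a CCAAT box, in 0.113%, were in none of the 76. Such matches describe letters and not binding. Several members have processed pseudogenes, and how reads shared with such copies were counted is not given in the sources used here.

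In SirT7-/- cells, starvation gave no called gene in the fit with 1 mean per group over all 14 libraries (0% of 15666, and 0 of 83 members). At an unadjusted p under 0.05 there were 2919 genes (18.6%) and 15 members (18.1%). DESeq2 called 201 genes (1.02%), 1 of them a member (1.20% of the members). The median log2 change of the members was -0.11, with complexes at -0.12 (I), -0.14 (II), -0.27 (III), -0.02 (IV) and -0.07 (V). Leaving out KO-NT 4 gave -0.21 for complex II, 0.03 for complex IV and -0.13 for complex V, and leaving out KO-GS 1 gave -0.05 for complex II. The groups KO-NT and KO-GS did not overlap for 25 members (3 higher, 22 lower, 30.1%), beside 12.5% of all genes (5.44% higher, 7.09% lower). Among those lower were Ndufs7, a complex I core subunit at 28.0, 31.9, 31.8 and 29.4 CPM in KO-NT and 20.5, 17.1 and 17.9 CPM in KO-GS, and Uqcr11, at 43.0, 48.2, 50.2 and 36.1 CPM and 24.5, 21.2 and 27.7 CPM. Their log2 changes were -0.71 (SE 0.21) and -0.86 (SE 0.23), both with an adjusted p of 0.227. The smallest p in complexes II, IV and V belonged to Sdhb (-0.18, SE 0.10), Cox6a1 (-0.44, SE 0.17) and Atp5e (-0.49, SE 0.18). For Ndufs7 and Uqcr11 the library labelled KO-NT 4 lay above all KO-GS values. Cox7a2l overlapped, at 96.9, 99.2, 97.7 and, in KO-NT 4, 175 CPM with normal medium, and at 156, 127 and 90.2 CPM in KO-GS.

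When 1 library was left out at a time, called members ran from 0 to 4 and calls over all genes from 0 to 3301. Without KO-NT 4 and KO-GS 3, 11 of 84 members passed (5 higher, 6 lower), beside 33.1% of all genes (18.6% higher, 14.5% lower). Without WT-NT 2 as well, which enters through the shared spread, 26 of 84 passed (7 higher, 19 lower), beside 38.4% of all genes (21.5% higher, 16.9% lower). Of the 11, those that rose were Cox6a2 (log2 change 2.22, SE 0.43), Cox7a2l (0.57, SE 0.13), Atp5g2 (0.50, SE 0.14), Atp5s (0.77, SE 0.18) and Atp5sl (0.60, SE 0.17). Those that fell were Uqcr11 (-1.01, SE 0.28), Atp5g3 (-0.67, SE 0.15), Atp5k (-0.58, SE 0.17), Atp5a1 (-0.39, SE 0.12), Sdhc (-0.34, SE 0.11) and Sdha (-0.32, SE 0.09), with adjusted p between 0.0034 and 0.039. Complex I had no gene among the 11, and for Ndufa10 the fitted difference in the same fit was 0.27 on the log2 scale (SE 0.10, adjusted p = 0.061). The groups without KO-NT 4 and KO-GS 3 did not overlap for 11 members with higher and 46 with lower values (68.7%), beside 64.4% of all genes (32% higher, 32.4% lower). The Atp5g2 share of the c-ring counts was 28.1 to 30.3% in KO-NT 1 to 3, 49.4% in KO-GS 1 and 40.1% in KO-GS 2. It was 48.8% in KO-NT 4 and 30.1% in KO-GS 3.

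The effect of SirT7 loss itself was read in each medium, averaged over both, and as the genotype difference in the starvation response. No member passed in any of these, in the fit of all libraries or without KO-NT 4 and KO-GS 3. In normal medium 1 gene of 15666 was called (0.00638%), as in glucose-free medium (0.00638%) and in the average (0.00638%), in each case Sirt7, and the genotype difference gave 0 genes (0%). Without those libraries the shares of all genes were 0.0252%, 0.0063%, 0.0189% and 0%. At an unadjusted p under 0.05 there were 1, 2, 1 and 1 members, in that order (1.20%, 2.41%, 1.20% and 1.20%). The shares of all genes with such a p were 4.20%, 3.88%, 2.54% and 6.06%. DESeq2 called no member in any of the 4. The median log2 change of the members was 0.01 in normal medium, -0.03 in glucose-free medium and -0.01 in the average. Leaving out 1 library moved these medians from -0.04 to 0.08, from -0.07 to -0.01 and from -0.03 to 0.03. Scaling by library size alone, without TMM factors, gave -0.02, 0.01 and -0.0044, so the signs in normal and in glucose-free medium turned with the scaling. The medians of all genes were then -0.02, 0.06 and 0.02, in place of 0.01, 0.02 and 0.01. In glucose-free medium 59 of 83 members (71.1%) were below 0, beside 47.2% of all genes. Without KO-NT 4 and KO-GS 3 there were 63 of 84 (75%), beside 48.4%, and with library size alone 37 of 83 (44.6%), beside 40.1%. The value in normal medium rests on WT-NT 2. Without that library the median was 0.08, 62 of 83 members were above 0 in place of 44, and 22 members (26.5%) had an unadjusted p under 0.05, beside 9.07% of all genes. Without KO-NT 4 and KO-GS 3 as well, the median was 0.10, 72 of 84 members were above 0, and 23 (27.4%) had such a p, beside 17.9% of all genes. No member passed the adjusted threshold in either fit, the smallest adjusted p being 0.116 in the second. Of the 76 members with at least 5 CPM, 69, 75 and 75 had a change smaller than 0.2, with median standard errors of 0.12, 0.14 and 0.09, so that changes of about that size could not be told from 0 for a single gene.

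By complex, the median changes with SirT7 loss in normal medium were 0.06 (I), -0.08 (II), 0.05 (III), -0.0024 (IV) and -0.02 (V), and in glucose-free medium -0.03, 0.03, -0.02, -0.07 and -0.02. Without WT-NT 2 those in normal medium were 0.17, -0.02, 0.13, 0.07 and 0.07. The largest change in normal medium among members with at least 5 CPM was that of Uqcrq, a small complex III subunit, at 18.0, 47.6, 41.5 and 21.9 CPM in WT-NT and 40.1, 51.0, 44.3 and 53.4 CPM in KO-NT, the log2 change being 0.55 (SE 0.27, adjusted p = 0.968) and the groups overlapping. Leaving out WT-NT 1 gave 0.35, and leaving out WT-NT 2 gave 0.80. Uqcrb, another complex III subunit, was the only member whose groups did not overlap there (1.20%, beside 3.03% of all genes, 1.46% higher and 1.57% lower), and without KO-NT 4 there were 2, both lower (2.41%, beside 9.12% of all genes, 4.67% higher and 4.44% lower). Without WT-NT 2 there were 16 higher and 1 lower (20.5%), beside 10.8% of all genes (5.73% higher and 5.06% lower), and the 16 included 10 of complex I. Uqcrb was at 70.792 to 75.2 CPM in WT-NT and 62.0 to 70.789 CPM in KO-NT, groups that nearly touched, with a log2 change of -0.12 (SE 0.07). In glucose-free medium it was at 78.0 to 80.1 CPM in WT-GS and 64.6 to 77.6 CPM in KO-GS (log2 change -0.13, SE 0.08). There 11 members did not overlap (1 higher, 10 lower, 13.3%), beside 11% of all genes (5.02% higher, 5.99% lower), and without KO-GS 3 there were 2 higher and 16 lower (21.7%), beside 16.9% of all genes (7.48% higher, 9.45% lower). The one higher was Cox4i2, at 0.42 to 0.48 CPM in WT-GS and 0.50, 0.78 and 1.185 CPM in KO-GS (log2 change 0.86, SE 0.36, adjusted p = 0.893, and a log2 change of 0.49 without KO-GS 3). Among those with lower values were Atp5h, a peripheral stalk subunit of complex V (-0.16, SE 0.08), and Sdhb (-0.08, SE 0.11).

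For the genotype difference in the starvation response the members' median was -0.07, with complexes between -0.09 (I) and 0.11 (II), and the smallest adjusted p was 0.680. Leaving out 1 library moved this median from -0.16 (WT-NT 2) to -0.0048 (WT-NT 4). Scaling by library size alone gave -0.0012, with 42 of 83 members (50.6%) below 0, beside 40.7% of all genes. With TMM scaling 61.4% of members were below 0, beside 48.5% of all genes. In the fit without KO-NT 4 and KO-GS 3 alone, the median was -0.07, and 73 of 84 members (86.9%) were below 0, beside 46.3% of all genes. There 0 members had an unadjusted p under 0.05 (0%), beside 3.30% of all genes. Without WT-NT 2, 64 of 83 members were below 0 in place of 51, and 13 (15.7%) had an unadjusted p under 0.05, beside 9.39% of all genes. Without KO-NT 4 and KO-GS 3 as well, the median was -0.18, and 77 of 84 members (91.7%) were below 0, beside 47.7% of all genes. Such a p was found for 9 members (10.7%), beside 7.64% of all genes, and no member passed the adjusted threshold. Without the 2 libraries, the difference was -0.01 (SE 0.16) for Cox7a2l, 0.02 (SE 0.19) for Atp5g2, -0.21 (SE 0.19) for Atp5g3, -0.03 (SE 0.11) for Sdha and -0.09 (SE 0.22) for Atp5k, none past the threshold. Both genotypes' own values for these genes stand above.

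**Figure D4:**
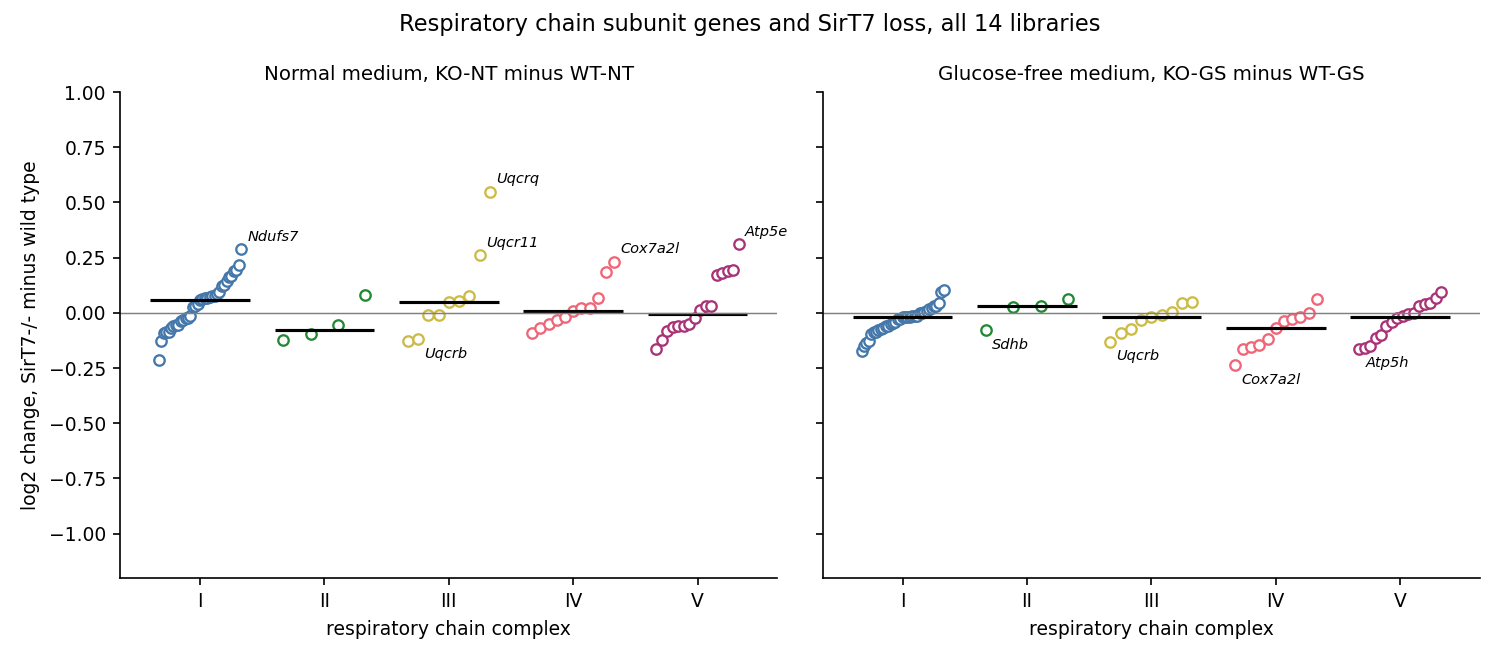
Log2 change in SirT7-/- minus wild type for genes with a mean of at least 5 CPM (35, 4, 9, 11 and 16 in complexes I to V) in normal (left) and glucose-free medium (right), all 14 libraries, 1 point per gene, with black lines at the medians of the plotted genes. Every point is open, since no member passed an adjusted p under 0.05; Uqcrq is highest at 0.55 on the left and Cox7a2l lowest at -0.24 on the right.

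Genes that build, import or regulate the chain were listed apart from the subunits and read from the same fit. These lists were read by their counts and medians only, in wild-type starvation, where 25.9% of all genes were called (12.9% higher, 13.1% lower). Complex IV assembly factors had 6 of 22 higher and 0 lower, among them Coa7 (log2 change 0.70, SE 0.18), Sco1, a copper chaperone (0.53, SE 0.14), Lrpprc, which stabilises mitochondrial mRNA (0.50, SE 0.14), and Surf1 (0.70, SE 0.21). Of 13 complex I assembly factors 3 were higher, namely Ndufaf4 (0.52, SE 0.11), Acad9 (0.25, SE 0.07) and Timmdc1 (0.28, SE 0.10), and none lower. Of 8 complex II and III assembly factors 3 were higher, namely Sdhaf2 (0.37, SE 0.09), Hccs (0.33, SE 0.09) and Lyrm7 (0.84, SE 0.29). Of 5 complex V factors only the inhibitor Atpif1 passed, and it fell (-0.48, SE 0.15). The medians over these lists were 0.23, -0.04, 0.14 and -0.14 on the log2 scale, in the order complex IV, I, II with III, and V, against -0.04 for all genes.

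Import and quality-control genes had 7 of 20 higher and 0 lower in the same comparison, beside the 12.9% and 13.1% of all genes, with Tomm20, the outer membrane import receptor, at 128 to 141 CPM in WT-NT and 240 to 296 CPM in WT-GS (log2 change 1.04, SE 0.26), and Opa1, which fuses inner membranes, at 0.48 (SE 0.11). Of 18 regulators of mitochondrial biogenesis 4 were higher (Tfb2m 0.76, SE 0.13; Gabpa, the DNA-binding partner of GABP, 0.61, SE 0.13; Tfb1m 0.50, SE 0.15; Tfam 0.39, SE 0.12) and 1 lower. Among 8 uncoupling and supercomplex genes, Higd1a rose (0.44, SE 0.13) and Ucp2, a carrier of the inner membrane, fell (-1.39, SE 0.35), from 145 to 190 CPM to 54.0 to 70.6 CPM. Leaving out 1 library at a time, the called genes ran from 0 to 9 for complex IV assembly, 0 to 5 for complex I, 0 to 3 for complexes II and III, 0 to 2 for complex V, 0 to 9 for import, 0 to 8 for biogenesis and 0 to 4 for uncoupling and supercomplexes. Over all genes they ran from 0 to 5621. None of the listed genes passed in SirT7-/- cells with all libraries. Without KO-NT 4 and KO-GS 3 the counts there, higher and lower, were 8 and 0 for complex IV assembly, 2 and 0 for complex I, 3 and 0 for complexes II and III, 0 and 1 for complex V, 7 and 0 for import, 6 and 1 for biogenesis and 2 and 1 of 9 for uncoupling and supercomplexes, beside 18.6% and 14.5% of all genes. SirT7 loss gave 0 calls in all of these lists. Fibroblast collagens moved with the medium too, Col1a1 by -2.07 (SE 0.50) and Col1a2 by -1.39 (SE 0.32) in wild type, and summed fibroblast markers went from 30020 to 37377 CPM in WT-NT to 12221 to 13353 CPM in WT-GS. Of 11 macrophage markers, Cd14, Mrc1 and Cx3cr1 fell in wild type, whose sum was 274 to 1712 CPM in WT-NT and 13.3 to 328 CPM in WT-GS. The part of these in the values above was not tested.

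WT-NT 2 exceeded the other WT-NT libraries in the 76 members with at least 5 CPM by a median of 0.35 (WT-NT 2 minus their mean), against 0.02 for all genes at that level. Uqcrq was highest in this respect, at 0.89, and the median was 0.40 in complex I, 0.20 in complex II, 0.38 in complex III and 0.32 in complexes IV and V. The excess of WT-NT 2 was larger for transcripts of higher GC content, with a Spearman correlation across the 76 genes of 0.60 (Pearson 0.59) and of 0.46 (Pearson 0.37) across 10512 genes. Genes are not independent replicates, and all values share that library. The part of GC content was not tested.

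**Figure D5:**
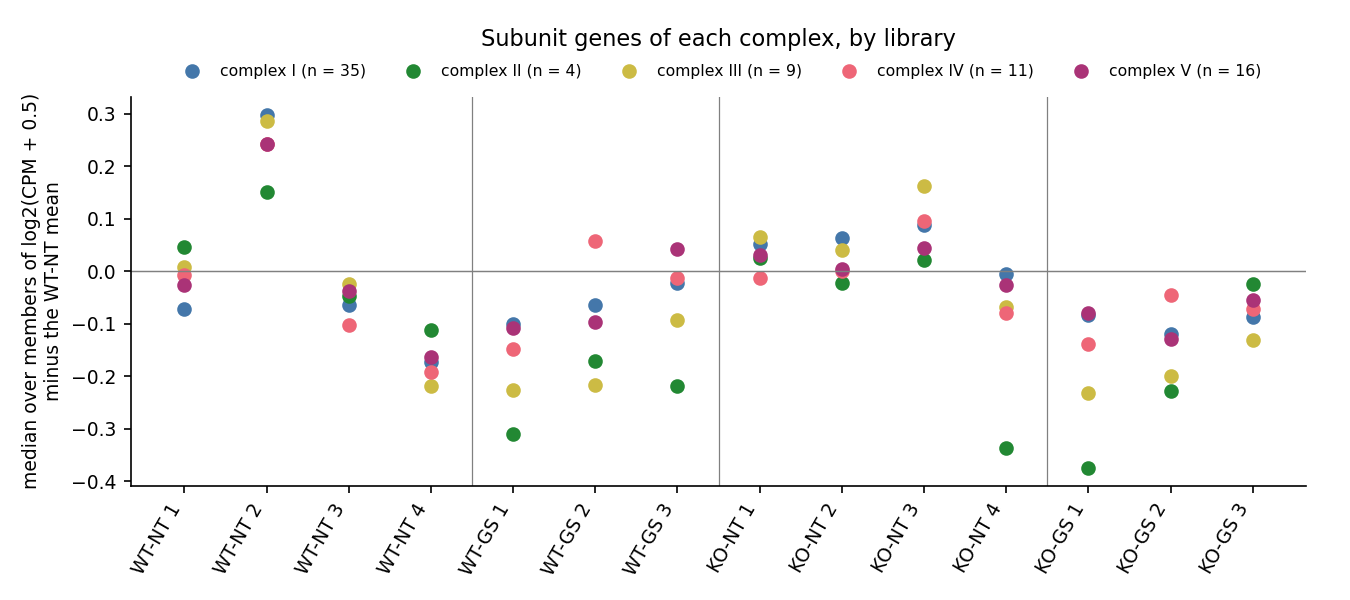
Median over the members of each complex of log2(CPM + 0.5) minus its WT-NT mean, by library, for members with at least 5 CPM. WT-NT 2 is highest for every complex, and complex II lies at -0.17 to -0.37 in the WT-GS libraries, KO-NT 4, KO-GS 1 and KO-GS 2 and at -0.03 in KO-GS 3.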

How the data were processed

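RNA from 14 libraries of mouse embryonic fibroblasts was sequenced. The authors deposited 1 table of estimated counts per gene (expected counts, all whole numbers, 24015 genes). Per the submitters' processing notes, the tools were FastQC 0.11.3, Trimmomatic 0.36, HISAT2 2.1.0, SAMtools, StringTie 1.3.3 and DESeq2 1.18.1 with build mm9. The annotation, strand setting and treatment of multiply mapped reads are not given in the sources used here. From these counts, edgeR 4.0.16 (R 4.3.3) with TMM scaling, a low-count filter (filterByExpr, minimum count 10, total 15) and the robust quasi-likelihood F-test was fitted with 1 mean per group over all 14 libraries, which left 15666 genes. P-values were Benjamini-Hochberg adjusted over all of them, and SE is the log2 change divided by the square root of F. Total counts were 59788270 to 91607861. Intervals and limits at 0 (3 counts) cover counting error only. Named genes were the called members (all where 25 or fewer), the smallest p of each complex, Cyc1, Cycs, the Sdh genes and isoform sets, and up to 4 genes per list. Cox7a2l, Atp5k, Atp5a1, Atp5s, Atp5sl, Uqcr11, Ndufs1, Ndufb8, Uqcrc1, Uqcrc2, Atp5b, Hspa5 and Txnip were added after their values were seen, as was the choice to leave out KO-NT 4, KO-GS 3 and WT-NT 2. Members and lists were chosen with earlier results of these data known. The fit was tested on simulated data. Alternatives were DESeq2 1.42.0, other scalings and filters, a replicate block, only the compared groups, and leaving out libraries. Promoters came from RefSeq, GRCm38.p6.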

Additional observations from a re-analysis of the deposited data

Results flagged for a closer look

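Of 68 checks (34 genes in the groups of 4 libraries, WT-NT and KO-NT), 13 found a library whose gap to its neighbours took up most of the group's range (above Dixon's critical ratio). Chance gives about 1 in 20 for a single check, but that is no yardstick for the count, since the checks share libraries and several genes (Cox7a2l, Atp5k, Atp5a1 and Atp5sl) were added after their values, with KO-NT 4 standing apart, were seen. In 12 of the 13 the library was KO-NT 4, whose Hspa5 and Txnip levels also went against its label. It was lowest for Atp5a1 at 440.7 CPM (others 614 to 625), Atp5g3 at 115.7 CPM (190 to 199), Atp5k at 29.98 CPM (50.8 to 54.1), Sdha at 155.2 CPM (211 to 215), Sdhc at 76.99 CPM (99.8 to 104) and Cox4i2 at 0.42 CPM (0.62 to 0.64). It was highest for Atp5g2 at 176.9 CPM (113 to 117), Atp5sl at 18.4 CPM (10.2 to 10.6), Cox6a2 at 3.68 CPM (0.40 to 0.58), Cox6b2 at 2.74 CPM (1.32 to 1.46), Cox7a2l at 174.7 CPM (96.9 to 99.2) and Ndufa10 at 67.6 CPM (57.5 to 58.4). KO-NT 3 was highest for Atp5g1, at 100.005 CPM (68.8 to 70.3).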

How the results depend on the processing

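For starvation in wild type, called genes numbered 5624 with DESeq2 (28.5%), 6633 with a replicate block (42.3%) and 5161 from only the groups compared (33.8%). They numbered 6280 without KO-NT 4 and KO-GS 3 (39.6%) and 6308 also without WT-NT 2 (39.9%). Called members were 5 with DESeq2 (6.02%), 19 with the block (22.9%, 5 higher, 14 lower) and 8 from only the groups compared (9.64%, 4 and 4). With no filter 1 member was called, for which the calls over all genes are not given here. They were 11 without the 2 libraries (13.1%, 6 and 5) and 23 without the 3 (27.4%, 19 and 4). Most member calls were lower with the block and higher without the 3. In SirT7-/- cells the genes were 201 with DESeq2 (1.02%), 3096 with the block (19.8%), 5251 without the 2 (33.1%) and 6075 without the 3 (38.4%). The members, in that order, were 1 (1.20%, lower), 12 (14.5%, 1 higher, 11 lower), 11 (13.1%, 5 and 6) and 26 (31.0%, 7 and 19). The block kept all 14 libraries under their labels. Leaving out 1 library at a time gave 0 to 5621 genes and 0 to 9 members in wild type, and 0 to 3301 genes and 0 to 4 members in SirT7-/- cells. Called genes for SirT7 loss in normal medium were 2 with RLE scaling, a stricter filter or the block, 19 with DESeq2 and 4 without the 2 or 3 libraries (1 to 3 leaving out 1). In glucose-free medium they were 7 (DESeq2) and 2 without the 3 (1 to 2), in the average 10 (DESeq2) and 3 without the 2 or 3 (1 to 2), and for the genotype difference 2 with DESeq2 (0 to 1). Signs turned in wild-type starvation for Sdhb (log2 change 0.0022 without the 2 libraries, 0.13 without the 3) and, without the 3, for Cox6a1 (0.0080) and Cox6b1 (0.076). They turned in SirT7-/- starvation for Cox4i1 (0.11 in both), Atp5g1 (-0.025 and -0.026) and Ndufa4l2 (0.36 in both, 0.18 with the block). Leaving out 1 library, wild-type ranges that crossed 0 were -0.11 to 0.049 for Cox6b1, -0.66 to 0.037 for Cox7a1 and -0.087 to 0.10 for Sdhb. In SirT7-/- cells they were -0.091 to 0.028 for Cox4i1, -0.84 to 1.64 for Cox6a2, -0.11 to 0.066 for Cox6b1, -0.15 to 0.57 for Cox7a1, -0.21 to 0.15 for Cox7a2, -0.25 to 0.32 for Ndufa4l2, -0.0024 to 0.30 for Atp5g1, -0.10 to 0.0044 for Cycs, -0.10 to 0.35 for Cox7a2l and -0.16 to 0.37 for Atp5sl, and for SirT7 loss averaged over media -0.10 to 0.010 for Sdhc. The cause of these shifts was not tested. Whether the replicate numbers pair the libraries was left undecided. Same-numbered deviations correlated at -0.28 to 0.56 over 13 pairs, 5 of them at or under 0.1. Of 14 libraries, 7 correlated best with their own number. The deviations were taken from group means that include KO-NT 4 and KO-GS 3, so these correlations cannot decide it.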
